A study of Caenorhabditis elegans with 2 samples.

Results

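Histone genes of Caenorhabditis elegans were examined for peaks of the zinc finger protein encoded by Y56A3A.18, annotated as znf-593. The genes were chosen by name, as the protein-coding genes of the WBcel235 annotation whose symbol begins with his- or hil- or equals htz-1, hcp-3 or cpar-1. These were 83 of the 19973 protein-coding genes of the nuclear chromosomes. The annotation gives the same symbol to several copies, so the 83 gene identifiers carry 61 distinct symbols.

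The measurements are chromatin immunoprecipitations followed by sequencing (ChIP-seq) from whole worms. There was 1 group of 2 biological replicates. All worms were strain RW12265, young adults of 63 hours, grown from L1 larvae synchronised by bleaching and starvation, and carried the allele st12265, in which TY1, EGFP and 3xFLAG tags were inserted by CRISPR at Y56A3A.18 on chromosome III. The description names an anti-GFP antibody, while the antibody field of the labels gives Y56A3A.18 itself. The values are averages over all tissues of the worm. No untagged or input sample was analysed here, and no comparison between conditions exists. The shares below are therefore given beside the same shares over all protein-coding genes and without a test.

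Nucleosomes wrap DNA around the core histones H2A, H2B, H3 and H4, and linker histones of the H1 family sit on the DNA between them. Core histone genes are expressed mainly during S phase, lie in clusters of near-identical copies that are often arranged as divergent pairs, and make mRNAs that end in a 3' hairpin instead of a poly(A) tail. Variant histones such as H2A.Z, H3.3 and the centromeric H3 are made from separate genes outside S phase as well. In C. elegans HTZ-1 is H2A.Z, HCP-3 is the centromeric H3 (CENP-A), CPAR-1 is a CENP-A-related protein, HIS-71 and HIS-72 are H3.3, and HIS-24 with the HIL proteins are linker histones.

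The 83 genes fell into 65 clustered core genes, 9 variant genes and 9 linker genes. The core genes comprised 17 for H2A, 17 for H2B, 15 for H3 and 16 for H4, at 14 loci, and formed 31 divergent pairs. Every core gene had another core gene start within 5000 bp. The variants were htz-1, hcp-3, cpar-1 and the 6 genes his-69 to his-74, which were grouped by name as H3.3-type. Of these, his-73 encodes only 46 residues in the gene model used. They were 97.8% identical to the core H3 of his-2, so its sequence does not set it apart as a variant. The linker genes were his-24 and hil-1 to hil-8.

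A gene was called bound when a peak summit of the authors' conservative list, drawn from both replicates together, fell within a window reaching from 1000 bp before to 500 bp after the 5' end of its model. By this rule 5 of the 83 genes were bound, through 4 distinct summits. They were the variant genes htz-1 and hcp-3 and the core genes his-37, his-2 and his-1. The sequences under these summits are shown first, because they carry the calls that the rest of the description turns on.

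The first set holds 151 bases around each summit that lies upstream of its gene, written 5' to 3' in the direction of the gene (ce11). Capitals mark the searched words on either strand. These were TATAAA, the letters of the TATA box, then TGACG, as well as the words GCGCGC and, from earlier results on these peaks, AGACGC. The htz-1 window is IV:4445867-4446017 on the plus strand, that of hcp-3 is III:9617020-9617170 on the minus strand, and that of his-37 is V:9546920-9547070 on the plus strand.
htz-1: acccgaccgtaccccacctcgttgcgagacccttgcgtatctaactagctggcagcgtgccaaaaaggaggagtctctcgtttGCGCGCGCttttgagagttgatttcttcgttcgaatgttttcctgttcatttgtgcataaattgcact
hcp-3: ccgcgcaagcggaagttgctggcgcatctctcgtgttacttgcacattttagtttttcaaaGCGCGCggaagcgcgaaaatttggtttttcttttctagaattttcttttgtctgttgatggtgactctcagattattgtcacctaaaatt
his-37: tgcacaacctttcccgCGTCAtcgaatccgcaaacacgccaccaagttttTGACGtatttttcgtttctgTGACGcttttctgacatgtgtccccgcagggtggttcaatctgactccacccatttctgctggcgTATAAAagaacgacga

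The word GCGCGC was found in the htz-1 window at 2 overlapping positions and in the hcp-3 window at 1, and not in that of his-37. It occurred in 6.70% of the summit windows of the conservative list and in 1.88% of stretches of the same length directly upstream of all protein-coding starts. The his-37 window held TGACG 3 times, counting both strands, and TATAAA 1 time. TGACG occurred in 20.04% of the summit windows and 14.6% of the upstream stretches, and TATAAA in 10.2% and 25.5%. AGACGC, found in 12.7% of summit windows and 4.02% of upstream stretches, was in none of these 3 windows. A match is a description of the letters and not a site.

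The second set comes from the H4 genes his-1 and his-64, where the summit lay past the 3' end of the gene. The hairpin that ends their mRNAs is shown in capitals with 7 bases on either side, with that of his-52 for comparison, at V:16042867-16042896, IV:11407468-11407497 and V:8850865-8850894, all on the plus strand. The stem-loop-binding protein SLBP (CDL-1 in worms) recognises this hairpin in the RNA.
his-1: acccaacGGCCCTCTTTAGGGCCacaaatc
his-64: acccaacGGCCCTCTTTAGGGCCacaaata
his-52: acccaacGGCCCTCTTAAGGGCCacaaatg

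The DNA around the summits, beyond the hairpin, is given next for V:16042903-16043013 and IV:11407506-11407616, both on the plus strand and 111 bases long, with the same words in capitals. Base 36 of each is the summit.
his-1: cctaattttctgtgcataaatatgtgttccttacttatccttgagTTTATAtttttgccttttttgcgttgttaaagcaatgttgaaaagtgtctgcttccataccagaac
his-64: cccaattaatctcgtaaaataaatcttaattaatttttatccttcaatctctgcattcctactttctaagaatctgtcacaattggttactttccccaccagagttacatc

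These stretches were poorer in G and C (33.3% for his-1 and 32.4% for his-64) than the windows upstream of htz-1 (49.7%), his-37 (49.0%) and hcp-3 (41.7%).

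The variant gene htz-1 had the strongest called peak among the histone genes, at IV:4445792-4446091. Its signal, the authors' strength of enrichment whose scale the labels and headers do not state, was 76.6 in the conservative list, where it ranked 722 of 1687 by signal. In the replicates' own ranked lists, which also hold peaks that miss the threshold, the signal was 54.4 in replicate 1 and 30.6 in replicate 2. Both replicates had a peak there, at rank 400 by signal in replicate 1's list and rank 1525 in that of replicate 2. The −log10 of the irreproducible discovery rate (IDR), a measure of how well a peak's rank is kept between peak callings, was 3.19 in replicate 1 and 1.19 in replicate 2, against a threshold of 2. The summit lay 274 bp upstream of htz-1 but only 202 bp upstream of the divergent wapl-1, which encodes a cohesin release factor, so the peak cannot be assigned to either gene by position.

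The peak of hcp-3 lay at III:9616945-9617244, 625 bp upstream of the start, with no other protein-coding start within 1000 bp. Its signal was 67.8 in the conservative list (rank 979), 34.6 in replicate 1 and 33.4 in replicate 2. These were ranks 1644 and 1162 of the replicates' lists, and neither passed the threshold in its own list (−log10 IDR of 1.16 and 1.59). The other centromeric-type gene, cpar-1, was not bound, since the nearest conservative summit lay 958 bp downstream of its start.

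The core gene his-37, which encodes H4, had its peak at V:9546845-9547144 with the summit 110 bp upstream of the start. The signal was 69.4 in the conservative list (rank 926), 54.9 in replicate 1 and 35.2 in replicate 2. These were ranks 388 and 999. The peak passed the threshold in replicate 1 (−log10 IDR of 2.98) and not in replicate 2 (0.122). C50F4.6 starts 903 bp from this summit and was the only other protein-coding gene with a start within 1000 bp. The gene differs from most core genes in its make-up, since it has an intron and no exact match to the 3' hairpin searched for below.

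The divergent H3 and H4 genes his-2 and his-1 shared 1 peak at V:16042788-16043087. The signal was 53.4 in the conservative list (rank 1407), 28.2 in replicate 1 and 30.3 in replicate 2, and neither replicate passed the threshold alone (−log10 IDR of 0.748 and 1.60). The summit was not between the genes. It lay 418 bp downstream of the start of his-1, which is 107 bp past its stop codon and 49 bp past the end of the hairpin, and 655 bp upstream of his-2 on the far side of his-1. The long noncoding RNA gene linc-61 lay within 500 bp of it.

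A second H3 and H4 pair had the same arrangement in another list. At his-63 and his-64, a peak at IV:11407391-11407690 was in the other thresholded list of both replicates, with a signal of 52.3, and in replicate 2's own thresholded list, but not in the conservative list. The signal was 22.5 in replicate 1, with a −log10 IDR of 0.0665, and 39.9 in replicate 2, with 2.45. The peak ranked 8383 in replicate 1's list and 671 in that of replicate 2, so it stood higher in replicate 2, whereas those of htz-1 and his-37 stood higher in replicate 1. The called summit lay 114 bp past the stop codon of his-64 and 51 bp past its hairpin. The replicates did not keep this spacing. Relative to the called summit, that of replicate 1 was offset by -51 bp, towards the gene, and that of replicate 2 by 0 bp. At his-1 the offsets were 4 bp in replicate 1 and -45 bp, towards the gene, in replicate 2. The median signal of the conservative list was 71.9. Of the histone gene peaks in that list, only that of htz-1 lay above it.

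**Figure D1:**
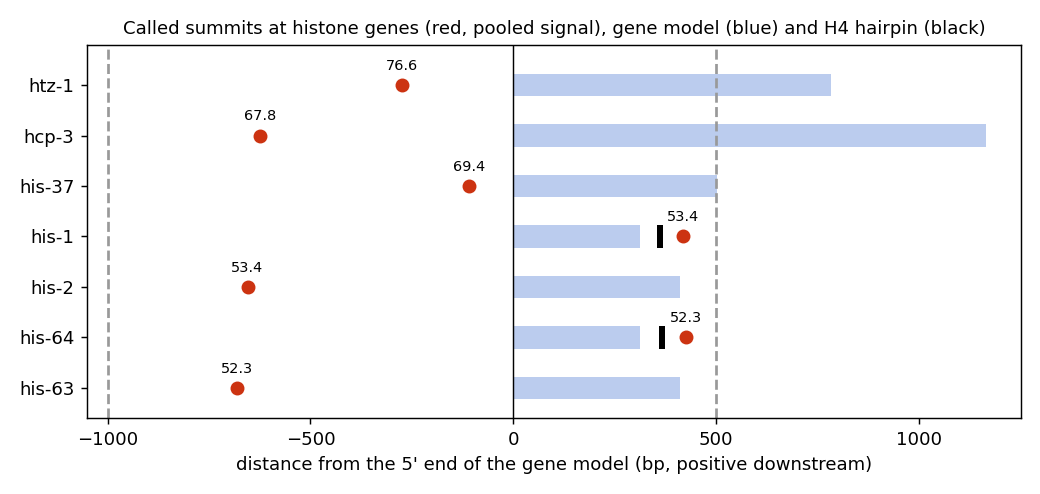
Position of each called summit (red, with the pooled signal) relative to the 5' end of the gene model (x axis, bp) for the 5 bound genes and for his-63 and his-64, which were called in the other thresholded list. Blue bars are gene models, black marks the hairpin of the H4 genes, dashed lines are the window limits. The summits of htz-1, hcp-3 and his-37 lie upstream of the start, and those of his-1 and his-64 lie past the end of the H4 gene.

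The bound genes made up 6.02% of the histone genes (exact 95% binomial interval 1.98 to 13.5%, covering counting error only), beside 3.89% of all protein-coding genes. Of the clustered core genes 3 of 65 were bound (4.62%, 0.962 to 12.9%), of the variants 2 of 9 (22.2%, 2.81 to 60.0%), and of the linker genes 0 of 9 (0 to 33.6%). These intervals treat genes as independent, although his-2 and his-1 rest on 1 shared summit and neighbouring windows overlap, so they describe the counts and do not compare the classes. Among the core types, 2 of 16 H4 genes, 1 of 15 H3 genes and none of the 17 H2A or the 17 H2B genes was bound.

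In the other thresholded list of both replicates 7 histone genes had a summit in the window, beside 4.01% of all genes, with his-63 and his-64 added to the 5. In replicate 1's own thresholded list only his-37 and htz-1 remained, beside 2.00% of all genes. In that of replicate 2 there were again 2 genes, his-63 and his-64, beside 1.85% of all genes. No histone gene was called in the own thresholded lists of both replicates. None of the linker genes had a summit in the window in any of the 4 thresholded lists.

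The ranked lists, which held 51496 peaks in replicate 1 and 52336 in replicate 2, allow a comparison below the threshold. In replicate 1, 40 of the 83 histone genes (48.2%) had a ranked summit in the window, beside 52.8% of all protein-coding genes. In replicate 2, 53 (63.9%) had one, beside 54.7%. In the 2 ranked lists of both replicates together, 53 and 52 had one, beside 71.0% and 71.1% of all genes. Of the core genes, 29 (44.6%) had a summit in replicate 1 and 38 (58.5%) in replicate 2. Of the variants, 5 (55.6%) and 7 (77.8%) had one, and of the linker genes 6 (66.7%) and 8 (88.9%). The core class was thus the lowest in both replicates and the linker class the highest. In the 2 ranked lists of both replicates together the variants led instead, with 9 and 8 of 9 genes. The linker genes had 6 of 9 (66.7%) in each of these lists, and the core genes 38 of 65 (58.5%).

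The replicates shared most of the histone genes with a summit in their own ranked lists. A summit anywhere in the window counted, so a shared gene need not have a shared place. A summit was present in both replicates at 38 histone genes, in replicate 1 only at 2, in replicate 2 only at 15 and in neither at 28. Over all protein-coding genes the corresponding shares were 38.4%, 14.4%, 16.3% and 30.9%.

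**Figure D2:**
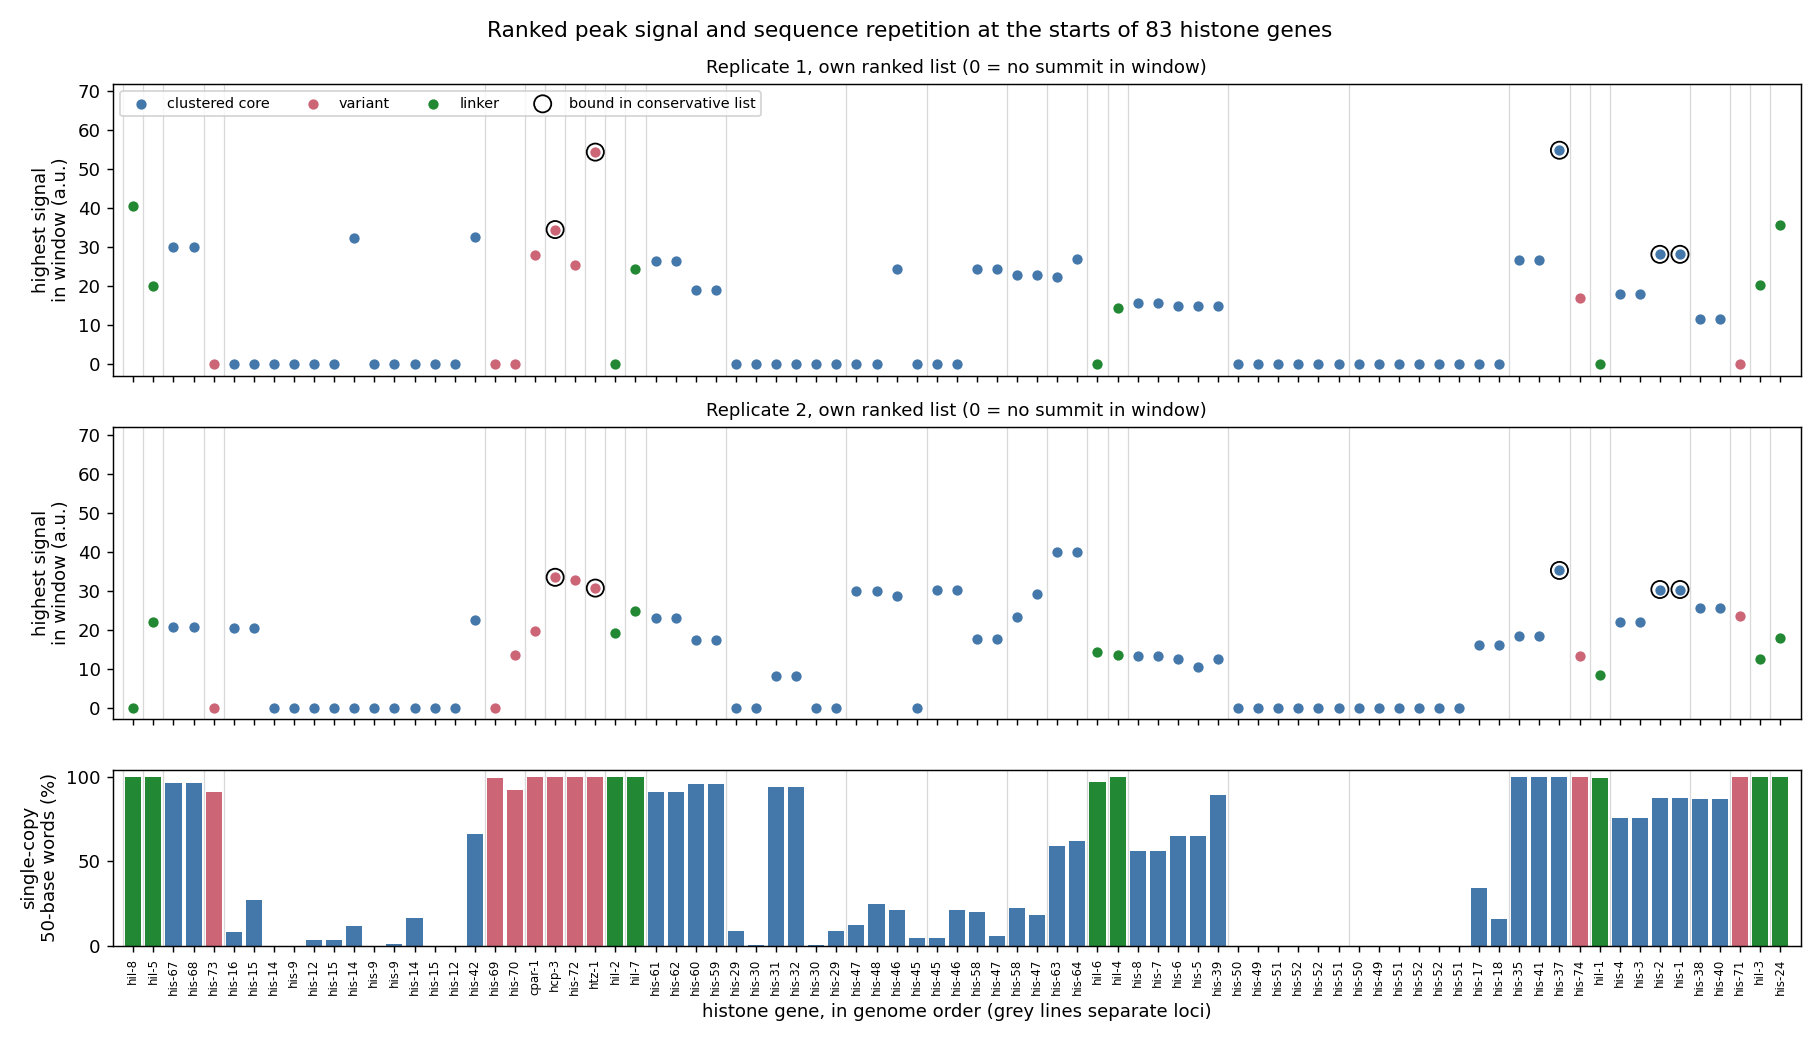
Highest ranked-list signal in the start window of each of the 83 histone genes in replicate 1 (top) and replicate 2 (middle), in the authors' units, and the percentage of the window's 50-base words found at a single place in the genome (bottom). Genes stand in genome order, 0 means that no ranked summit lay in the window, and black circles mark the 5 bound genes. The long runs of core genes at 0 lie where the bars in the bottom panel are near 0.

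Among the variants, his-72, an H3.3 gene, had a peak in both replicates near the start, with a signal of 25.4 in replicate 1 and 32.8 in replicate 2 and summits 50 bp downstream and 43 bp upstream of the start. The signal at cpar-1 was 28.0 and 19.6, with summits 210 bp downstream in replicate 1 and 293 bp upstream in replicate 2, so the replicates did not mark the same place. The H3.3-type gene his-74 had 17.1 and 13.1, with the strongest summits 451 and 110 bp downstream of the start. The second H3.3 gene, his-71, had no summit in replicate 1 and a signal of 23.5 in replicate 2, and his-70 had none and 13.6. At his-69 and his-73 neither replicate had a summit in the window. The ranked lists of both replicates together did hold a summit at his-73 (13.37), and 1 of them also at his-69 (19.75). These 6 genes were grouped by name as H3.3-type. Within the replicates' own ranked lists they ranged from no summit to a signal that, in replicate 2, was close to that of hcp-3.

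The linker genes varied as widely. The gene for the linker histone HIS-24 had a signal of 35.9 in replicate 1 and 17.9 in replicate 2, with summits 46 bp downstream and 69 bp upstream of the start. The signal at hil-8 was 40.7 in replicate 1, 659 bp upstream, and no summit was present in replicate 2. The signals were 24.4 and 24.9 at hil-7, with summits 94 and 650 bp upstream, and 19.97 and 21.9 at hil-5. At hil-5 both summits lay downstream of the start, at 462 and 431 bp. The summits at hil-3 coincided, 94 and 99 bp upstream, with signals of 20.3 and 12.4. At hil-4 the signals were 14.5 and 13.4, with summits 200 bp downstream and 170 bp upstream, so again not at the same place. The genes hil-2 (19.2), hil-6 (14.1) and hil-1 (8.34) had a summit in replicate 2 only.

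Of the core genes, the 5 with the highest mean percentile of ranked signal over the replicates were his-37, his-64, his-1, his-2 and his-42. The H3 gene his-42, which is in no divergent pair, had a signal of 32.7 in replicate 1 and 22.4 in replicate 2. The highest signal in the window of the H4 gene his-64 was 27.1 in replicate 1 and 39.9 in replicate 2, at different places. That of replicate 1 came from a summit past the end of his-63, on the other side of the pair. At the peak past his-64, replicate 1 had 22.5. The place of his-64 in this order thus rests on different summits in the replicates. The lowest place was shared by 26 core genes with no ranked summit in either replicate, so that no 5 lowest genes could be singled out. Among them were all copies of his-9, his-12, his-29, his-30, his-49, his-50, his-51 and his-52.

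These 26 genes had in common that their windows consist of repeated sequence. The share of a window's 50-base words found at a single place in the genome, either strand counted, was between 0 and 16.5% in all 26. Over the 65 core genes the median of this single-copy share was 18.3%, with 28 genes at 10% or less, 17 of them at 0, and 16 genes at 80% or more. The variants had shares of 91.0 to 100% and the linker genes of 96.7 to 100%, and the median of all protein-coding genes was 100%. Reads from repeated sequence cannot be placed uniquely, and how such reads were treated by the authors is not stated in the labels or headers.

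Ranked summits were rarest at the lowest single-copy share, in the histone genes and in the other genes. In the other genes their share rose through all 4 ranges, and in the histone genes it was highest in the range over 50 and under 80%. Among the 28 histone genes with a share of at most 10%, 1 had a ranked summit in replicate 1 and 3 in replicate 2. Of the 212 other protein-coding genes in that range, 0 and 7 (3.302%) did, and over all genes in that range, histone genes included, the shares were 0.417% and 4.17%. Among the 12 histone genes over 10 and up to 50%, 5 and 10 had a summit, beside 24.2% and 31.8% of other genes. All 9 histone genes over 50 and under 80% had a summit in both replicates, beside 42.9% and 44.9% of other genes. At 80% or more, 25 of 34 histone genes (73.5%) had a summit in replicate 1 and 31 (91.2%) in replicate 2, beside 54.1% and 55.9% of other genes and 54.2% and 56.0% of all genes in that range.

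With 50-base words, the 5 bound genes all had a share of at least 80%, where they made up 14.7% of the 34 histone genes, beside 4.01% of the other genes and 4.03% of all genes in that range. With 36-base words his-1 and his-2 fell to a share of 76.5%, which left 3 of 30 histone genes bound at 80% or more and 2 of 12 in the range below. Of the 16 core genes with a share of at least 80% by 50-base words, 14 had a ranked summit in replicate 1, all but the divergent his-31 and his-32. In replicate 2 all 16 had one, and 3 were bound. Of the 49 core genes under 80%, 15 and 22 had a ranked summit and none was bound. With repeated windows left out, the share of core genes with a summit in the replicates' own ranked lists was not below that of the other classes. Those were 5 and 7 of 9 for the variants and 6 and 8 of 9 for the linker genes. The part that repetition plays in the missing peaks of the other core genes was not tested, and an absent peak there does not show that the protein is absent.

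**Figure D3:**
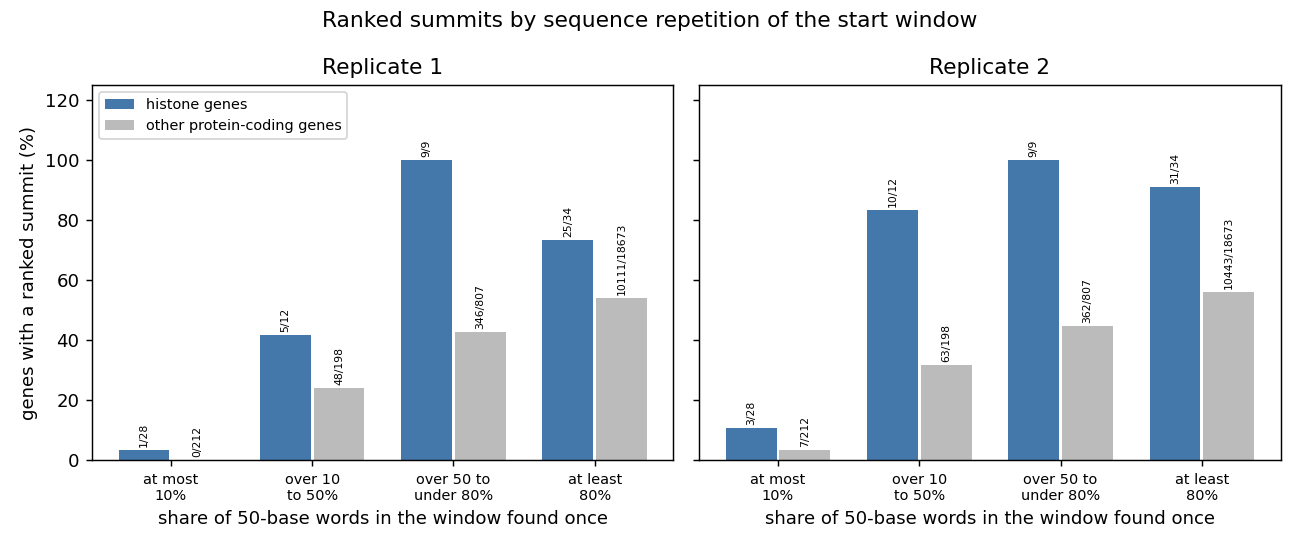
Percentage of genes with a ranked summit in the start window (y axis) in 4 ranges of the single-copy share of the window (x axis), for histone genes (blue) and other protein-coding genes (grey), in replicate 1 (left) and replicate 2 (right), with the counts above the bars. In the lowest range 1 of 28 and 3 of 28 histone genes had a summit, and in the highest 25 of 34 and 31 of 34.

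The extreme case was an exact duplicate of 15287 bp on chromosome V, with copies at V:8840017-8855303 and V:8882112-8897398. The copies hold 12 core genes, namely his-49, his-50 and the copies of his-51 and his-52. Neither copy contained a ranked summit in either replicate, whereas the genome as a whole had 0.514 summits per kb in replicate 1 and 0.522 in replicate 2. The regions between divergent starts show how alike the core genes are. The following are the middle parts of the regions between his-2 and his-1 (V:16042334-16042469, plus strand) and between his-50 and his-49 (V:8847755-8847892, minus strand), both in the direction of the H4 gene, with TATAAA in capitals on either strand.
his-1: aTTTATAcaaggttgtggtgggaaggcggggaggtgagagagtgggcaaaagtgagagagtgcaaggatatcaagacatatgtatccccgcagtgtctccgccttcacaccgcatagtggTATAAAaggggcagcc
his-50: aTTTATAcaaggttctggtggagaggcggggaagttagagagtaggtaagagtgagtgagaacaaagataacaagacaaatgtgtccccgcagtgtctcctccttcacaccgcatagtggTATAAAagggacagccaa

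Over the whole region between the start codons these sequences were 88.2% identical, and those of his-1 and his-64 were 67.7% identical. The his-2 and his-1 region and the his-50 and his-49 region each hold a TATAAA word pointing to either gene of the pair, and the middle part of the his-63 and his-64 region holds none. The word was present within 151 bp upstream of 53.8% of the core starts and of 38.9% of the variant and linker starts, beside 25.5% of all starts. TGACG was found upstream of 1.54% of core starts, GCGCGC and AGACGC upstream of none, and none of these 3 words was in the summit stretches past his-1 and his-64.

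Where summits lay around the divergent pairs was asked after the peak positions at his-1 and his-64 had been seen. Each pair was divided into the shared upstream region between the starts, the gene models, and 300 bp past either gene end. The strongest ranked summit of a pair lay past a gene end at 7 of the 31 pairs in replicate 1 and at 11 in replicate 2. It lay in a gene model at 5 and 7 pairs, and between the starts at 2 and 0 pairs. At 17 and 13 pairs there was no ranked summit. The pairs that prompted the question, his-2 with his-1 and his-63 with his-64, are among those counted past a gene end in both replicates. The places also differ in size, with 18577 bp past the ends, 24432 bp in the gene models and 8354 bp between the starts.

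**Figure D4:**
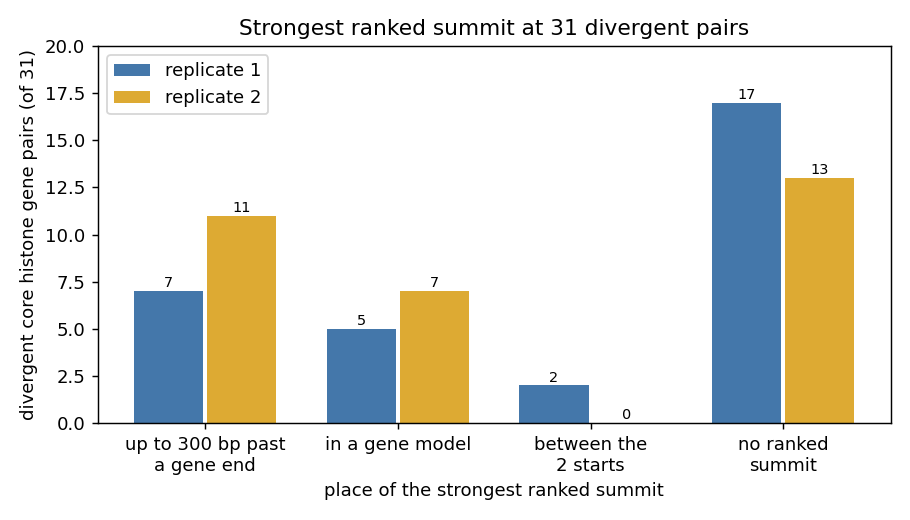
Number of the 31 divergent core histone gene pairs (y axis) by the place of their strongest ranked summit (x axis) in replicate 1 (blue) and replicate 2 (yellow). The place past a gene end leads among pairs with a summit, with 7 pairs in replicate 1 and 11 in replicate 2, and the shared upstream region has 2 and 0. The pairs that prompted the count are included, and the places differ in length.

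Counting all ranked summits, the stretches past the gene ends held 0.861 summits per kb in replicate 1 and 1.02 in replicate 2, at a median of 111.5 and 105 bp past the end. The gene models held 0.532 and 0.573 per kb. The shared upstream regions held 1.08 per kb in replicate 1 and 0.479 in replicate 2, so that their order relative to the other places differed between the replicates. These densities rest on 16 and 19 summits past the ends, 13 and 14 in the gene models and 9 and 4 between the starts. The genome as a whole had 0.514 and 0.522 per kb. The single-copy share of bases also differed between the places, at 49.7% past the ends, 29.6% in the gene models and 37.3% between the starts. Per kb of single-copy bases, replicate 1 had 1.73 summits past the ends, 1.80 in the gene models and 2.89 between the starts, and replicate 2 had 2.06, 1.94 and 1.28. On that scale the higher density past the ends than in the gene models was gone in replicate 1 and small in replicate 2. A summit lay past the end of 5 of 15 paired H4 genes in each replicate, of 5 and 6 of 14 H3 genes, of 2 and 4 of 17 H2A genes and of 3 and 4 of 16 H2B genes, beside 21.6% and 22.4% of all protein-coding genes, many of whose models reach past the stop codon. The single-copy share of these stretches was 50.8% for H4, 62.9% for H3, 55.1% for H2A and 31.1% for H2B genes, beside 96.1% for all genes, and its part in the counts was not tested.

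The 3' hairpin, searched as a 6-base stem GGCCCT with a 4-base loop within 150 bp after the stop codon, was found at 57 of the 65 core genes, 32 to 58 bp after the stop. Only an exact stem counted, and altered stems were not searched for. A gene without a hairpin below is thus a gene without an exact match. It was found at 12 of 17 H2A, 15 of 17 H2B, 15 of 15 H3 and 15 of 16 H4 genes. None of the 9 variants and none of the 9 linker genes had a match. Of the 19890 other protein-coding genes only lys-10 had one, a lysozyme-like gene at IV:8332826-8333518 that lies among his-29 to his-32. The searched pattern reads the same on both strands, and the hairpin of the minus-strand gene his-31 lies between the 2 gene models. The match at lys-10 was not told apart from that of his-31 and does not show a hairpin of its own. Among the 57 core genes, the sequence was the one shown for his-1 at 53 genes and the one shown for his-52 at the 4 copies of that gene. The stem was fixed by the search, so only the 4-base loop could differ.

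The histone genes without a hairpin were bound at 3 of 26 (11.5%) and those with a hairpin at 2 of 57 (3.51%), beside 3.89% of all protein-coding genes. These groups also differed in repetition, since 23 of the 26 genes without a hairpin and 11 of the 57 with one had a single-copy share of at least 80%. Within that range 3 of 23 and 2 of 11 were bound. The core genes without an exact match to the hairpin were his-37, his-35, his-41, his-39, his-68, 1 copy of his-47 and 2 copies of his-51.

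Genes that supply and deposit histones were set beside the histone genes. Of a list of 21 such genes, 4 were bound (19.0%, beside 3.89% of all protein-coding genes). The list was chosen by hand with earlier results of these data known, so the 2 shares are not an independent comparison. All 4 had higher signals in the conservative list than his-1 and his-2, and 3 of them, all but ruvb-2, higher ones than any histone gene. The peak of lin-53, an RbAp48-type histone-binding protein of chromatin complexes, had a signal of 184.7 in the conservative list, 109.6 in replicate 1 and 72.99 in replicate 2, 248 bp upstream of lin-53 and 219 bp upstream of nra-2. That of hat-1, the B-type histone acetyltransferase that modifies new H4, had 119.7, 81.3 and 40.9, 206 bp upstream. The peak of unc-85, an ASF1 chaperone of H3 and H4, had 90.9, 43.6 and 48.0, 277 bp upstream. The peak of ruvb-2, an ATPase of remodelling complexes, had 55.9, 27.4 and 31.3, 145 bp upstream.

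The other 17 genes of the list were not bound, although 19 of the 21 had a ranked summit in replicate 1 and 18 in replicate 2, beside 52.8% and 54.7% of all protein-coding genes. They included cdl-1, the worm SLBP (22.6 and 13.3), the second ASF1 gene asfl-1, which had no ranked summit in either replicate, hira-1, which acts in H3.3 deposition (11.1 and none), chaf-1 of the CAF-1 chaperone (11.0 and 10.9), and hcp-4, the CENP-C protein (10.5 and 27.7). The genes knl-2 (16.4 and 13.6), which acts in loading HCP-3, and rba-1 (13.4 and 13.5), the neighbour and paralogue of lin-53, were likewise below the threshold.

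The calls sit near several limits. The nearest unbound genes had their closest conservative summit at 958 bp (cpar-1), 1205 bp (hil-4) and 1459 bp (his-41) downstream and 1707 bp upstream (his-35), and the bound gene nearest the limits was his-1 at 418 bp of the 500 bp allowed. The gene model equalled the coding sequence in 61 of the 65 core genes, so the start used for them is the start codon and not the first transcribed base.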

How the data were processed

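The labels describe ChIP-seq of 2 biological replicates, with chromatin sheared by sonication and a size range of 200 to 800 bp. The authors deposited peak lists on ce11, per the file headers: a ranked and a thresholded list per replicate, and 2 of each for both replicates together. The aligner and peak caller, and the treatment of reads with several matches, are not given in the sources. The deposited signal of a peak is the authors' strength of enrichment, ranked only within a list. Values from the replicates' lists stand side by side, and the median signals of those lists were 15.2 and 12.7. The deposited score is the authors' scaled IDR and enters no result. The deposited −log10 values are the authors' IDR, with 2 (IDR 0.01) as the threshold. Read depth is unknown here.

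Positions were compared with Ensembl release 115 of WBcel235 (sequences shown are from its genome), with 1-based coordinates, in Python 3.11.15 with pandas 2.3.3, numpy 2.4.6, scipy 1.17.1 and Biopython 1.88. Every peak ended within its reference chromosome. Histone type came from alignment of each protein to those of his-1 to his-4 and his-24. Linker genes (his-24 and hil-) and variants (htz-1, hcp-3, cpar-1 and his-69 to his-74) were set by name, and any other protein under 95% identity would have counted as a variant. The single-copy share is the percentage of 50-base words starting in the window that occur at 1 place in the genome. Window assignment was correct for 200 of 200 artificial summits planted inside or outside the windows of annotated genes. Genes were named if they were bound, variant or linker genes, or core genes among the 5 highest or lowest, with genes sharing a bound summit. The members, lists and comparisons were chosen with earlier results of these data known, and the hairpin, word, duplicate and place measures after seeing peak positions. Alternatives varied the list, replicate, window, assignment, cluster distance and word length. With peak lists of 1 group no test was made.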

Additional observations from a re-analysis of the deposited data

How the results depend on the processing

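The count of 5 bound histone genes was 7 in the other thresholded list, 6 with the window extended to 2000 bp upstream, 5 with any overlap of at least 1 bp and 5 in the 34 genes with a single-copy share of at least 80%, an alternative chosen after seeing the data (3 of 30 with 36-base words, 5 of 38 with 100-base words). With 1 replicate's own list in place of both it was 2 either way, but with no gene shared (his-63 and his-64 without replicate 1, htz-1 and his-37 without replicate 2). It was 1 (htz-1) with peaks at or above the median signal, 2 (htz-1 and his-37) with a narrow window (500 bp before to 200 bp after the start), and 3 (hcp-3, his-37 and his-1) with the nearest start only. Of these calls, that of his-37 was the one kept under both the narrow window and the nearest-start rule. Shares over all protein-coding genes were not computed for the changed windows, the overlap, the median-signal cut or the nearest-start rule. Counts at these settings, here and by class, therefore have no background beside them.

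By class, the 3 bound core genes became 5 in the other thresholded list, 0 at or above the median signal and 1 with the narrow window, and 1 to 2 with a replicate left out. The 2 bound variants became 1 at or above the median signal, 1 with the narrow window and 1 with the nearest start only, and 0 to 1 with a replicate left out. The linker genes stayed at 0 in all 11 alternatives. Cluster distances of 2000 and 10000 bp changed no class.

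The share of histone genes with a ranked summit, 48.2% in replicate 1 and 63.9% in replicate 2, was 36.1% and 34.9% with the narrow window. Replicate 2 no longer led there. The share of all protein-coding genes with the narrow window was not computed, so the drop is not a result about histone genes. In the ranked lists of both replicates the share of histone genes was 63.9% and 62.7%. Among genes with a single-copy share of at least 80% it was 73.5% and 91.2% with 50-base words, 70% and 90% with 36-base words, and 76.3% and 92.1% with 100-base words. The median highest signal of the genes with a summit, 24.4 in replicate 1 and 20.6 in replicate 2, was 40.4 and 30.2 when signals were summed, and 19.7 and 14.5 with the narrow window.

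No paired analysis was possible because the series has 1 group. With 4 distinct summits behind the calls, and unknown depth, shares of the small classes are imprecise, and peaks in repeated windows could not be assessed. No untagged control was analysed here.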
